A study of Homo sapiens and Mus musculus with 12 samples.

Results

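The genes described here encode 3 families of splicing proteins: the heterogeneous nuclear ribonucleoproteins (hnRNPs), the SR proteins and the protein subunits of the small nuclear ribonucleoproteins (snRNPs). They were taken from the expression tables by symbol, as every row beginning with HNRNP, SRSF and a digit, or SNRP, after 34 pseudogene rows and 3 antisense or divergent rows were dropped. This left 90 of 29493 rows in all: 47 of 16782 for the human melanoma line A375 (23 hnRNP, 12 SR and 12 snRNP genes) and 43 of 12711 for the mouse melanoma line Yumm1.7 (20, 10 and 13). The comparisons used the 46 A375 and 42 Yumm1.7 rows that averaged 1 TPM or more across a line's 6 libraries. SRSF12 in A375 and Snrpn in Yumm1.7 did not.

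The study set drug-tolerant persister cells, which survive a drug without stable resistance, against the parental cells of each line. The labels call the 2 states S and P without saying which letter is which, and they name no drug, dose or time, so S and P are used here and every difference is S relative to P. Cell lysate was separated on a sucrose gradient, and RNA was sequenced from the polysome fractions at the bottom, from the monosome fractions (the 80S peak and lighter fractions) and from the unfractionated input. Each state of each line gave 1 library of each kind, 12 in all, from 1 cell line per species. There are therefore no replicates, no difference could be set against replicate spread, and no test was made.

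Splicing removes introns from nuclear pre-mRNA. The U1, U2, U4, U5 and U6 snRNPs assemble on each intron, and apart from U6 they share a ring of Sm proteins (the products of SNRPB or SNRPN, SNRPD1, SNRPD2, SNRPD3, SNRPE, SNRPF and SNRPG) around their RNA. SR proteins carry arginine- and serine-rich tails, bind exons and mostly promote their inclusion, while hnRNPs coat the transcript and often have the opposite effect. Many SR and hnRNP genes limit their own expression through alternative exons that send the mRNA to nonsense-mediated decay, and MYC is known to raise the expression of several of these genes, among them HNRNPA1, HNRNPA2B1 and SRSF1.

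Values are TPM, the share of a library's reads a gene takes per unit of transcript length, scaled to 1000000. TPM is relative within a library and keeps no read depth, so the precision of a single value is unknown, and less of an mRNA per cell cannot be told apart from fewer cells expressing it or from a shift in all other mRNAs. Differences are log2(TPM + 1) differences minus the difference of the median gene, which for S over P in input was itself -0.20 (A375) and -0.94 (Yumm1.7), -0.21 and -1.53 in polysomes, and 0.04 and -0.21 in monosomes. Of 8 melanocyte lineage genes, 6 were in the A375 table, summing to 864 TPM in S input and 586 in P input, whereas the 4 in the Yumm1.7 table summed to 0.571 and 5.09 TPM. Mitf, the master regulator of the lineage, accounted for 0.571 TPM in Yumm1.7 S input and 4.76 in P input, and the 4 summed to at most 7.21 TPM in any library of this mouse line, although it is labelled melanoma. Fibroblast markers summed to 318 TPM in Yumm1.7 S input and 39.2 in P input (6 of 7 in the table, Col3a1 the highest at 204 and 25.4), and to at most 6.49 TPM in any A375 library. Of the 6 genes, 1 stayed below 1 TPM in every library. The part of these markers in the Yumm1.7 differences below was not tested.

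The mRNAs of all 3 families took a smaller share of the S libraries than of the P libraries in both lines. The 23 hnRNP genes of A375 summed to 2590 TPM in S input and 8290 in P input, a ratio of 0.312. For the 12 SR genes the sums were 940 and 2236 TPM (0.420), and for the 12 snRNP genes 2219 and 4722 (0.470). In Yumm1.7 the hnRNP genes summed to 660 TPM in S input and 4515 in P input (0.146), the SR genes to 235 and 1224 (0.192), and the snRNP genes to 975 and 2563 (0.381). In both lines the hnRNP ratio of sums was thus the lowest and the snRNP ratio the highest. The snRNP sums weigh SNRPD2 heavily, the largest snRNP value in S input of both lines. It had 860 TPM in S input and 1253 in P input of A375, and 545 and 287 in Yumm1.7. Family medians per gene, relative to the median gene, did not place snRNP genes highest. They were -0.88 for SR and -1.12 for snRNP genes in A375, and -1.32 and -1.33 in Yumm1.7.

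**Figure D1:**
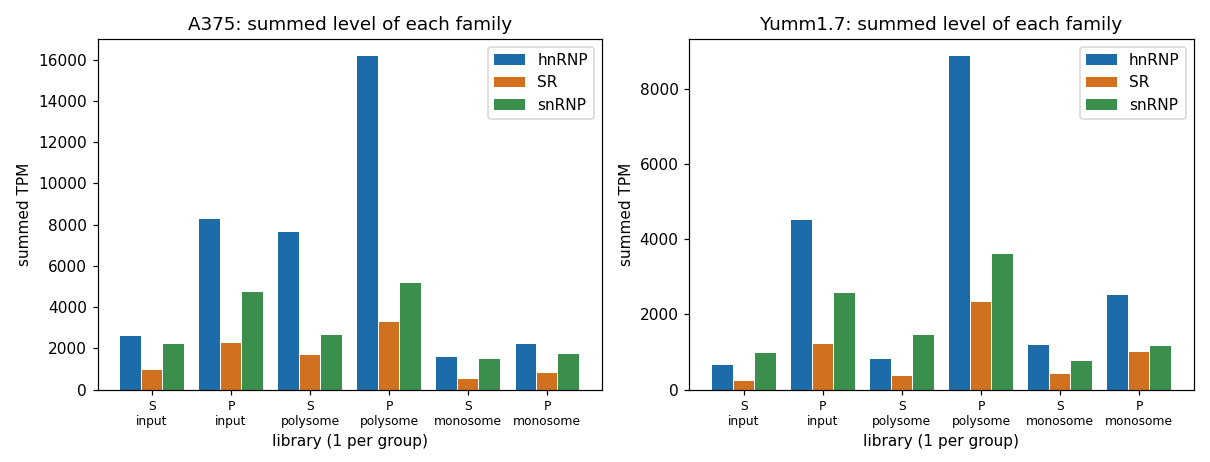
Summed TPM (vertical axis) of the hnRNP, SR and snRNP genes in each library of A375 (left) and Yumm1.7 (right), S beside P for input, polysome and monosome RNA, 1 library per bar. Every S bar is lower than its P bar, with 815 against 8887 TPM for hnRNPs in Yumm1.7 polysomes and 1492 against 1723 TPM for snRNPs in A375 monosomes.

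In A375 input RNA, 14 of 23 hnRNP genes were at least 2-fold lower in S relative to the median gene (family median -1.26), as were 5 of 11 SR genes (-0.88) and 6 of 12 snRNP genes (-1.12). Over all 12638 genes tested, 16.2% were at least 2-fold lower and 15.6% higher. As deposited, 35 members were lower (20.9% of all genes) and 1 higher (11.9%). A single member was at least 2-fold higher, HNRNPA1L2, an intronless copy of HNRNPA1, which had 7.36 TPM in S input and 0.488 in P input but was lower in S polysomes (1.17 and 6.87) and monosomes.

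The lowest hnRNP gene was HNRNPR (chr1:23303771-23344336, minus strand, GRCh38), whose product binds mRNA and is a close relative of SYNCRIP. It had 33.8 TPM in S input, 147 in S polysomes and 27.8 in S monosomes, against 266, 559 and 73.0 in the same P libraries, and was -2.74 on the log2 scale in input. HNRNPM followed at -2.13, with 81.8, 320 and 31.9 TPM in S and 415, 829 and 26.7 in P. Its monosome level was thus slightly higher in S. The most abundant members were HNRNPA1, which binds pre-mRNA and can block splice sites, and HNRNPA2B1, its close relative. HNRNPA1 had 475, 902 and 400 TPM in S input, polysomes and monosomes, and 1483, 2624 and 842 in P. HNRNPA2B1 had 272, 1400 and 163 TPM in S and 1265, 2795 and 205 in P. HNRNPA1 was lower in S in every kind of library, whereas the monosome levels of HNRNPA2B1 differed little.

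Within the hnRNPs, 6 of 7 A/B-type genes were at least 2-fold lower in A375 input (median -1.64, HNRNPA0 being at -0.78), a grouping that leaves out the HNRNPA1 copies HNRNPA1L2 (2.69) and HNRNPA1L3 (-0.81), neither of which was at least 2-fold lower, and 3 of 4 F/H-type genes, which bind runs of G. The exception was HNRNPH2, the X-linked relative of HNRNPH1, at 73.9, 173 and 47.2 TPM in S against 65.8, 124 and 26.3 in P. HNRNPH1 itself had 99.5, 221 and 79.0 TPM in S and 420, 616 and 102 in P. HNRNPH2 was therefore higher in all 3 S libraries (0.36, 0.69 and 0.78 for input, polysomes and monosomes) while its paralogue was lower in all 3. Among the others, HNRNPK (-0.85), HNRNPU (-0.98), HNRNPUL1 (-0.88) and HNRNPLL (-0.59) were lower by less than 2-fold. The readthrough HNRNPUL2-BSCL2 was listed at 0 in S polysomes and in both monosome libraries, and no fold is given for it. It stays in the hnRNP counts by the naming rule. Without it, 6 of 22 hnRNP genes instead of 7 of 23 were at least 2-fold lower in A375 S polysomes, and the other counts it touches are given beside them.

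For 5 further A375 hnRNP genes the values are given in the order input, polysomes and monosomes. HNRNPAB had 238, 525 and 77.3 TPM in S and 567, 1041 and 90.9 in P, and HNRNPD 120, 411 and 59.5 in S and 434, 817 and 72.1 in P. HNRNPK, which binds runs of C, had 230, 648 and 135 TPM in S and 476, 1019 and 103 in P. HNRNPK was thus lower in S input and polysomes and higher in S monosomes, whereas HNRNPAB and HNRNPD were lower in all 3. HNRNPLL, a regulator of CD45 splicing in T cells, had 29.4, 36.8 and 14.7 TPM in S and 51.3, 68.0 and 15.9 in P. HNRNPUL2 had 26.6, 61.0 and 18.2 TPM in S and 70.5, 133 and 15.2 in P, so its monosome level too was slightly higher in S.

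Among the SR genes of A375, SRSF7 (74.8 TPM in S input and 284 in P input), SRSF1 (66.1 and 199), SRSF3 (94.7 and 270), SRSF2 (173 and 480) and SRSF5 (91.1 and 222) made up the lower group, between -1.71 and -1.07. SRSF2 and SRSF1 are classical exonic enhancer-binding factors, and SRSF3 and SRSF7 are short SR proteins also tied to mRNA export. SRSF8, an intronless copy of SRSF2, went the other way in every kind of library. It had 30.8, 23.3 and 41.0 TPM in S input, polysomes and monosomes, against 19.2, 19.0 and 17.7 in P, or 0.85, 0.49 and 1.13 relative to the median gene. SRSF9, the second most abundant SR gene, had 224, 234 and 68.6 TPM in S and 391, 338 and 75.7 in P, and was lower by less than 2-fold in all 3.

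The A375 SR genes differed in how far the fractions followed the input. SRSF1 had 66.1, 94.4 and 40.9 TPM in S input, polysomes and monosomes and 199, 344 and 115 in P, SRSF2 had 173, 261 and 113 in S and 480, 825 and 236 in P, and SRSF7 had 74.8, 160 and 42.1 in S and 284, 457 and 96.7 in P. These 3 were lower in S by more than 2-fold in every kind of library. SRSF3 had 94.7, 192 and 58.1 TPM in S and 270, 495 and 83.0 in P, the smallest difference being in monosomes. By contrast, SRSF5 had 91.1, 288 and 49.4 TPM in S and 222, 296 and 61.9 in P, SRSF4 had 69.4, 207 and 35.6 in S and 141, 243 and 34.2 in P, and SRSF11 had 54.2, 127 and 31.9 in S and 114, 112 and 33.1 in P. For these the difference lay in input, and the polysome levels of S and P were close. SRSF10, known for its part in the heat shock response, had 22.9, 38.6 and 11.4 TPM in S and 32.3, 55.4 and 17.3 in P and was within 2-fold of the median gene in all 3.

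The snRNP genes of A375 varied within their roles. Both U2-specific genes, SNRPA1 (39.6 TPM in S input and 182 in P input) and SNRPB2 (88.8 and 363), were at least 2-fold lower, as was the U1-specific SNRPA (42.9 and 176). SNRPC, the other U1-specific gene, was at -0.83 (136 and 278). In the Sm ring, 3 of 8 genes were at least 2-fold lower and the values spanned -2.04 to 0.13. SNRPB (chr20:2461634-2470853, minus strand) was the lowest, with 174, 485 and 73.0 TPM in S input, polysomes and monosomes, and 825, 1609 and 106 in P. SNRPN, the imprinted relative of SNRPB that can take its place in the ring, had 260, 216 and 102 TPM in S and 273, 207 and 82.2 in P. In input, SNRPN was therefore the more abundant of the pair in S (260 against 174 TPM for SNRPB) and the less abundant in P (273 against 825). SNRPE (122 and 152 TPM in S and P input) and SNRPD2 (860 and 1253) were also within 2-fold of the median gene.

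SNRPA had 42.9, 79.8 and 21.8 TPM in A375 S input, polysomes and monosomes, and 176, 302 and 89.2 in P, and was the snRNP gene at least 2-fold lower in all 3. SNRPB2 had 88.8, 245 and 59.7 TPM in S and 363, 730 and 83.5 in P. The Sm ring gene SNRPF had 120, 90.4 and 62.4 TPM in S and 389, 227 and 118 in P. Both were at least 2-fold lower in input and polysomes but not in monosomes.

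Promoter sequences of some of these human genes are shown, chosen after their values were seen. RefSeq (GRCh38.p14) entries matched 43 of the 47 A375 members. Each line gives the 100 bases before the annotated start and the 50 after it, 5′ to 3′ on the gene's strand, and capitals mark the motifs searched on both strands: CACGTG (E-box), CCGGAAG (ETS), the NRF1 palindrome, TTTCCCGC (E2F), CCAAT and GGGCGG (GC box). The first 5 genes were at least 2-fold lower in S input and the last 2 were not.
HNRNPR (chr1:23344235-23344384, minus strand): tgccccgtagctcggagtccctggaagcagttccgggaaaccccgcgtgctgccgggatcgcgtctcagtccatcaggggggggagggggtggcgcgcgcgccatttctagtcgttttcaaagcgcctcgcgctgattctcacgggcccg
HNRNPM (chr19:8444875-8445024, plus strand): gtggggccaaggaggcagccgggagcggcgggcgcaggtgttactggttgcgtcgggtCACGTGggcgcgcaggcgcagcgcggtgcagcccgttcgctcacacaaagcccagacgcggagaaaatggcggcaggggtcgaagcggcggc
SNRPB (chr20:2470740-2470889, minus strand): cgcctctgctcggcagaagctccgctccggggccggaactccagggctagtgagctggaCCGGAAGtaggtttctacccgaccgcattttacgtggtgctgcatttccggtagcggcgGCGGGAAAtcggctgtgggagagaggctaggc
SNRPB2 (chr20:16729926-16730075, plus strand): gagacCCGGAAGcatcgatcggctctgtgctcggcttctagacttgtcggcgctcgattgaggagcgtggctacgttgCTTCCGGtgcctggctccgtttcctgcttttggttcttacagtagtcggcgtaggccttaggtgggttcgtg
SRSF7 (chr2:38751445-38751594, minus strand): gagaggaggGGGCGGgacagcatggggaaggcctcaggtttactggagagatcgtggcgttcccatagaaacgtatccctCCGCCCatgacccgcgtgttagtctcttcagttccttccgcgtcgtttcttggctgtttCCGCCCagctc
HNRNPH2 (chrX:101408122-101408271, plus strand): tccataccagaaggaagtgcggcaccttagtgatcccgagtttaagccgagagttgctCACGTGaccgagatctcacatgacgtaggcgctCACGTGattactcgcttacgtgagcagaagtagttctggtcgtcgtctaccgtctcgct
SRSF8 (chr11:95066777-95066926, plus strand): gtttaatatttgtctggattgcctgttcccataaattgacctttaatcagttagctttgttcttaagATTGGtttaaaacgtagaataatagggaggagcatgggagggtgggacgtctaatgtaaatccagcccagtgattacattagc
Across the whole 300-base windows, from 250 bases before the start to 50 after it, CCGGAAG occurred in 7 of 11 snRNP promoters (63.6%), 2 of 11 SR promoters and 3 of 21 hnRNP promoters, against 14.4% of 14866 protein-coding promoters. CACGTG occurred in 7 of 21 hnRNP promoters (33.3%) and in no SR or snRNP promoter, against 8.95% of all. HNRNPH2, which was not lower, held 2 copies of CACGTG, more than any other member. CCAAT occurred in 14 of 21 hnRNP, 2 of 11 SR and 4 of 11 snRNP promoters, against 36.3% of all. GGGCGG occurred in 17 of 21, 5 of 11 and 6 of 11, against 59.4%. The 21 hnRNP promoters count HNRNPUL2 and its readthrough HNRNPUL2-BSCL2 separately, although their annotated starts lie close together on the same strand. Both held CCAAT and GGGCGG. TTTCCCGC was found in 3 of 43 members (2.19% of all promoters) and the NRF1 palindrome in none (1.74%). Hits of different motifs overlapped in 1 member promoter. These matches describe letters only and do not show binding, and a link of any motif to the S over P differences was not tested.

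In Yumm1.7 input RNA, the same 3 families were low in S. Of 20 hnRNP genes, 15 were at least 2-fold lower (median -1.38), as were 6 of 10 SR genes (-1.32) and 7 of 12 snRNP genes (-1.33). Over all 10492 genes tested, 22.3% were at least 2-fold lower and 23.1% higher. Of the 12711 genes listed, 1581 were at 0 in S input and 316 in P input, against 773 and 447 of 16782 in A375. Whether a sparser S library shaped the low values was not tested. As deposited, without the shift of the median gene, 41 of 42 members were at least 2-fold lower and none higher, against 48.1% and 8.94% of all genes.

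Hnrnpd, whose product binds AU-rich mRNA elements, was the lowest Yumm1.7 hnRNP gene in input on the log2(TPM + 1) scale (-4.20). It had 5.27, 31.5 and 34.9 TPM in S input, polysomes and monosomes, and 219, 366 and 34.6 in P, so the low value was in the input and polysome libraries and not in the monosome library. Hnrnpr (-3.66 in input) had 0.252, 0.308 and 0.751 TPM in S against 29.4, 85.2 and 32.8 in P and was low in all 3. Its S values were below 1 TPM, where the added 1 TPM weighs most. Hnrnpa2b1 had 68.7, 89.7 and 97.4 TPM in S and 936, 2236 and 382 in P. Hnrnpab, which also binds AU-rich RNA, had 56.6, 91.9 and 85.3 TPM in S and 685, 1300 and 388 in P. Hnrnpk, Hnrnpul2, Hnrnph2, Hnrnpa3 and Hnrnpdl were the 5 genes within 2-fold of the median gene in input, from -0.11 to -0.58. Hnrnpk had 167 TPM in S input and 344 in P input.

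Hnrnpa1 had 36.1, 93.8 and 89.5 TPM in Yumm1.7 S input, polysomes and monosomes, and 539, 992 and 422 in P. Hnrnpll had 1.89, 2.93 and 6.29 TPM in S and 28.8, 61.0 and 28.9 in P. Both were at least 2-fold lower in all 3 kinds of library. Hnrnpm had 17.5, 14.0 and 22.6 TPM in S and 91.1, 232 and 29.5 in P, with a much smaller difference in monosomes. Hnrnpul2 had 14.6, 19.0 and 32.3 TPM in S and 31.6, 84.8 and 24.4 in P, and was higher in S in monosomes.

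Among the mouse SR genes, Srsf4 was listed at 0 in S input but at 16.4 TPM in S polysomes and 23.5 in S monosomes, against 45.0, 66.6 and 15.1 TPM in P. No fold is given for its input value, although Srsf4 stays in the count of lower SR genes in input. Srsf2 had 17.4, 23.8 and 51.6 TPM in S input, polysomes and monosomes, and 222, 404 and 251 in P, and was the lowest SR gene in polysomes (-2.50). Srsf5 (47.3 TPM in S input and 135 in P input) and Srsf11 (14.2 and 43.3) were nearest to the median gene, at -0.56 and -0.61. In the Sm ring, Snrpd2 was the single member at least 2-fold higher in S, with 545, 450 and 246 TPM in S input, polysomes and monosomes and 287, 322 and 112 in P. It was at 1.86, 2.01 and 1.34 relative to the median gene. As deposited it was still higher in S in all 3, but at least 2-fold only in monosomes. Snrpb had 9.34, 22.5 and 14.0 TPM in S and 145, 464 and 49.7 in P, so the 2 ring genes moved far apart. Snrpe had 28.2, 125 and 29.2 TPM in S and 259, 412 and 127 in P. Snrpd3 was lower in S input (30.9 and 136 TPM) and higher in S monosomes (50.5 and 31.0).

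Srsf1 had 16.2, 9.75 and 47.3 TPM in Yumm1.7 S input, polysomes and monosomes, and 86.5, 138 and 130 in P. Srsf7 had 22.8, 34.9 and 32.1 TPM in S and 154, 321 and 107 in P, and Srsf3 had 39.2, 52.0 and 36.7 in S and 180, 406 and 159 in P. All 3 were lower in S in every kind of library by more than 2-fold. Srsf5 had 47.3, 99.7 and 67.6 TPM in S and 135, 337 and 80.5 in P, Srsf11 had 14.2, 25.2 and 16.7 in S and 43.3, 88.7 and 37.8 in P, and Srsf9 had 30.8, 54.1 and 56.7 in S and 179, 282 and 71.3 in P. Srsf10 had 14.2, 14.0 and 21.9 TPM in S and 56.7, 88.1 and 73.5 in P. For Srsf5 and Srsf9 the monosome levels were close. Among the other snRNP genes, Snrpa had 52.6, 92.4 and 68.3 TPM in S and 127, 154 and 43.7 in P, and was higher in S monosomes. Snrpb2 had 7.91, 20.1 and 13.7 TPM in S and 80.0, 155 and 62.3 in P, and Snrpf 65.0, 98.2 and 90.1 in S and 467, 449 and 223 in P. Snrpn, below the threshold for comparison, had at most 1.42 TPM in any Yumm1.7 library.

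**Figure D2:**
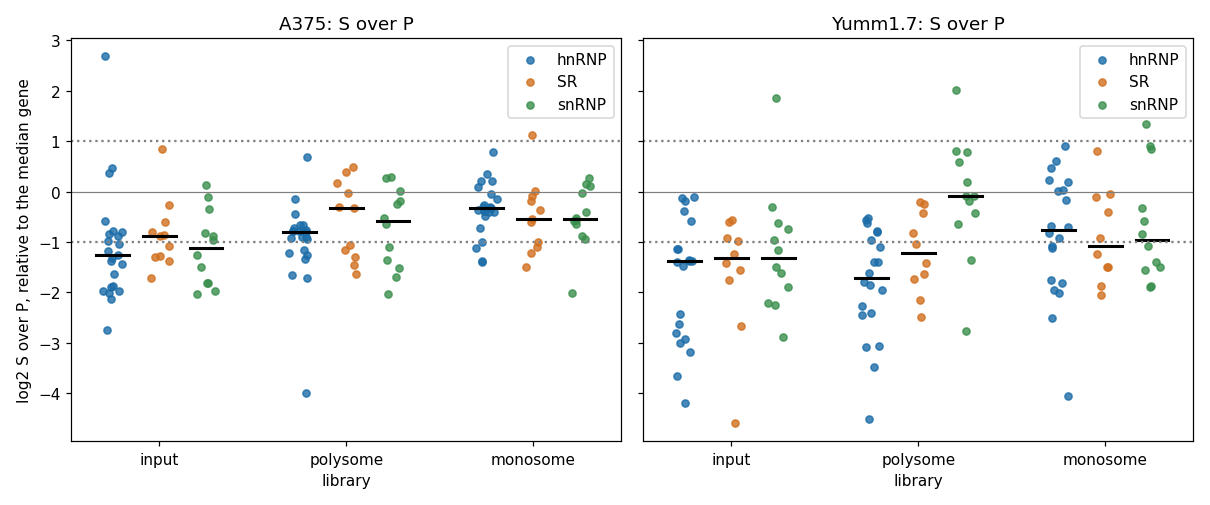
Log2 S over P relative to the median gene (vertical axis) for each member in input, polysome and monosome RNA of A375 (left) and Yumm1.7 (right). Points are genes, black bars are family medians and dotted lines mark 2-fold. Most input points lie below 0, and the Yumm1.7 snRNP median is at -1.33 in input and -0.09 in polysomes.

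Of 41 members tested in both lines under the same symbol, 19 were at least 2-fold lower in S input in both. They were 19 of the 25 lower in A375 and 19 of the 28 lower in Yumm1.7, and none was past 2-fold in opposite directions. That left little room to differ, because Snrpd2 in Yumm1.7 was the only one of the 41 at least 2-fold higher in either line. HNRNPA1L2, higher in A375, is not among the 41. Of the members not lower in A375, 9 were lower in Yumm1.7. Over all 8522 genes tested in both lines, 672 (7.89%) were lower in both, which is 52.2% of those lower in A375 and 34.4% of those lower in Yumm1.7, against 76% and 67.9% for the members. Members were also lower more often in each line alone, 25 and 28 of 41, against 1288 and 1953 of the 8522 genes. The higher shared percentages therefore do not by themselves show closer agreement between the lines. The 19 members comprised 11 hnRNP genes (A1, A2B1, AB, C, D, F, H1, H3, L, M and R), the SR genes SRSF1, SRSF2, SRSF3 and SRSF7, and the snRNP genes SNRPB, SNRPB2, SNRPD1 and SNRPF. Across these 41 genes the differences of the lines had a Pearson r of 0.32 and a Spearman rho of 0.26. HNRNPA1, HNRNPR, SRSF1, SRSF2 and SRSF7 were at least 2-fold lower in all 3 kinds of library in both lines (12.2% of the 41, against 2.70% of the 8522 genes). Per line this held for 6 of 46 members in A375 (13.0%, against 6.33% of all genes) and 12 of 42 in Yumm1.7 (28.6%, against 11.7%).

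**Figure D3:**
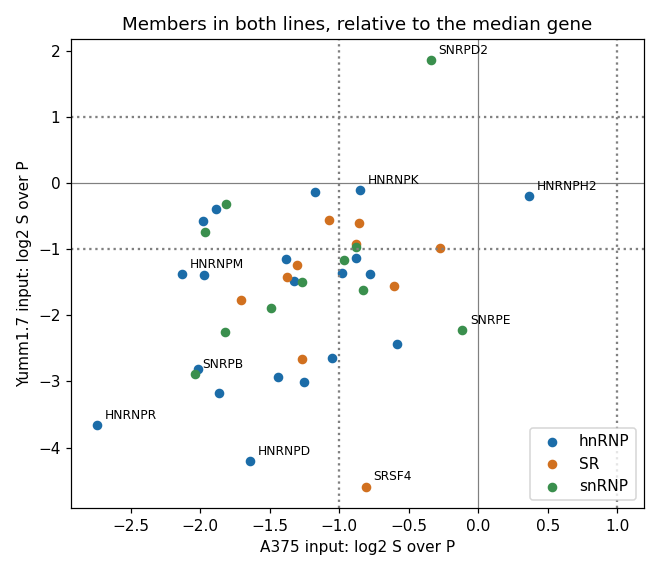
Log2 S over P in input RNA of A375 (horizontal axis) and Yumm1.7 (vertical axis), relative to the median gene, for the 41 members tested in both lines. Each point is a gene and dotted lines mark 2-fold. The lower left corner holds the 19 genes low in both lines, and SNRPD2 lies alone above 1 in Yumm1.7 (1.86, against -0.34 in A375).

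The fractions did not all show the input pattern. In A375 monosomes, 9 of 46 members were at least 2-fold lower in S (13.2% of all genes) and 1, SRSF8, was higher (11.7%). In A375 polysomes, 17 of 46 were lower (15.6%) and none higher (16.5%). In Yumm1.7 monosomes, 19 of 42 were lower (24.0%) and Snrpd2 was higher (25.4%). In Yumm1.7 polysomes, 22 of 42 were lower (22.5%) and Snrpd2 again was the 1 higher (24.1%). By family, the Yumm1.7 polysome counts were 14 of 20 hnRNP genes lower (median -1.71), 6 of 10 SR genes (-1.22) and 2 of 12 snRNP genes (-0.09). The 2 were Snrpb and Snrpb2. As deposited, 38 members were lower in Yumm1.7 polysomes (65.1% of all genes) and none higher (5.28%). In the polysome libraries the SR genes ranked alike in both lines (Pearson r 0.96 and Spearman rho 0.93 over 10 genes). For the same genes r was 0.06 and rho 0.14 in input, and 0.59 and 0.60 in monosomes. The input values include Srsf4, listed at 0 in Yumm1.7 S input, which can lower r and rho by itself. Values without Srsf4 and over all genes were not computed, so the gap between polysomes and input is not a result. In polysomes SRSF1, SRSF2, SRSF3, SRSF6 and SRSF7 were at least 2-fold lower in each line, and SRSF4, SRSF5 and SRSF11 were near the median gene. For the hnRNP genes the same r was 0.43 over 20 genes.

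The polysome libraries were set against the monosome libraries of the same state to show which of these mRNAs sedimented with many ribosomes. Ribosomes load along the coding sequence, so a short coding sequence holds few of them. In A375 S, 16 of 23 hnRNP genes were at least 2-fold more polysomal than the median gene (median 1.52), as were 7 of 11 SR genes (1.04) and 5 of 12 snRNP genes (0.45), against 20.8% of all genes. At least 2-fold lower were 1 hnRNP and 1 SR gene, against 16.7%. In A375 P, the counts were 19 of 23 (1.97; 18 of 22 without the readthrough), 5 of 11 (0.75) and 5 of 12 (0.77), against 19.1%, and 1 snRNP gene was lower, against 20.8%. As deposited, 36 members were more polysomal in S (38.7%) and 40 in P (51.6%), and none was less (4.86% and 7.36%). Members are abundant mRNAs, and against the median of genes averaging 20 TPM or more the counts were 14, 2 and 2 in S and 16, 2 and 2 in P, with 5 members at least 2-fold lower in each state. Shares of all genes were not counted with this centring, here or below, so these counts have no background beside them.

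HNRNPM was the most polysomal member in both A375 states, with 320 TPM in polysomes and 31.9 in monosomes of S, and 829 and 26.7 in P. HNRNPA2B1 was next in S (1400 and 163 TPM). The least polysomal hnRNP genes averaging 10 TPM or more were HNRNPA1L3 (37.5 and 21.0 TPM in S, 82.4 and 27 in P) and HNRNPA1. HNRNPA1 was less polysomal than several A/B-type relatives, with 902 TPM in polysomes and 400 in monosomes of S and 2624 and 842 in P. Its ratio was 0.51 in S and 0.59 in P relative to the median gene, whereas HNRNPA2B1, HNRNPA3, HNRNPAB and HNRNPD lay between 1.93 and 2.43 in S and between 2.27 and 2.71 in P. HNRNPA0 lay nearer to it (0.99 in S and 1.14 in P), and its copies HNRNPA1L3 (0.14 and 0.52) and HNRNPA1L2 (-1.13 in S) were lower still. HNRNPA1 mRNA is known to begin with a terminal oligopyrimidine tract, the motif of mRNAs under mTORC1 control. Its 8 listed pseudogenes summed to 3.11% of its TPM in S input and 6.37% in P input, so reads shared with copies could move its values.

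SRSF8 was the least polysomal SR gene in both A375 states, with 23.3 TPM in polysomes and 41.0 in monosomes of S and 19.0 and 17.7 in P (-1.45 and -0.96). SRSF6 followed (0.06 and -0.01). SRSF4 and SRSF5 were the most polysomal in S, with SRSF4 at 207 TPM in polysomes and 35.6 in monosomes and SRSF5 at 288 and 49.4. In P, SRSF4 (1.74) and SRSF3 (1.51) led. Among snRNP genes, SNRPB had 485 TPM in polysomes and 73.0 in monosomes of S, and 1609 and 106 in P, and led in both states (2.05 and 2.87). SNRPC followed in S (1.68) and SNRPB2 in P (2.06). SNRPG had 160 and 145 TPM in S and 220 and 261 in P, SNRPE 114 and 105 in S and 107 and 91.3 in P, and SNRPD2 796 and 793 in S and 911 and 713 in P. These 3 Sm ring genes had similar TPM in both libraries, while SNRPB had several times more in the polysome library. TPM is a share of each library, so amounts in the fractions cannot be compared. The median gene was itself at 0.67 in S and 1.05 in P for polysome over monosome. Pseudogene rows summed to 12.7% of SNRPG in S input and 13.7% in P input, and to 12.2% and 18.1% of SNRPE, so their values are uncertain.

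Coding length in the human annotation (GENCODE 29) ordered the A375 snRNP genes much as the polysome ratio did. The 6 genes of up to 130 codons (SNRPD1, SNRPD2, SNRPD3, SNRPE, SNRPF and SNRPG, 76 to 126 codons) had median ratios of -0.33 in S and -0.40 in P. The 6 longer genes (159 to 282 codons) had medians of 1.26 and 1.24. The groups overlapped, because SNRPD3 (126 codons) was at 1.16 and 1.27, SNRPN (240 codons) at 0.42 and 0.27, and SNRPA1 (255 codons) at 0.07 in S. In Yumm1.7 the same split, with human lengths, gave medians of 1.59 in S and 0.69 in P for the 6 short genes, and 1.12 and 0.98 for 5 longer ones, so in S the short genes were the more polysomal. Over 44 A375 members with a coding length, the Spearman rho of length and ratio was 0.48 in S and 0.47 in P, against 0.12 and 0.33 over 10795 genes. Within families rho was 0.59 and 0.65 for snRNP genes, 0.04 and 0.02 for hnRNP genes, and 0.16 and -0.21 for SR genes. In Yumm1.7, with the human lengths of 41 matched genes, rho was -0.58 in S and 0.02 in P. The points share 2 libraries each, so these values only describe them.

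**Figure D4:**
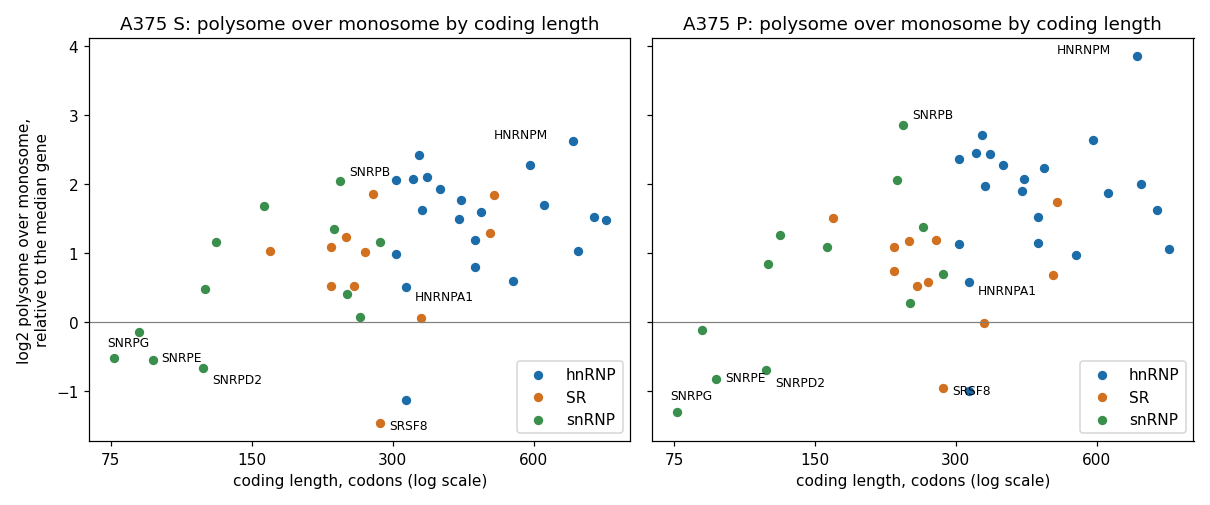
Log2 polysome over monosome relative to the median gene (vertical axis) against human coding length in codons (horizontal axis, log scale) for A375 S (left) and P (right). Each point is a gene coloured by family. Short Sm ring genes such as SNRPG (76 codons) and SNRPD2 (118) lie below 0, and so does SRSF8 at 282 codons.

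In Yumm1.7 the gradient separated the families differently in the 2 states. In S, no hnRNP gene was at least 2-fold more polysomal than the median gene and 4 of 20 were less (median 0.12), 2 of 10 SR genes were more and 1 less (0.18), and 8 of 12 snRNP genes were more and none less (1.35). Over all genes 13.2% were more and 10.9% less. In P, 6 of 20 hnRNP (0.66), 3 of 10 SR (0.40) and 4 of 12 snRNP genes (0.83) were more polysomal and none less, against 14.0% and 13.4% of all genes. As deposited in S, 5 members were past 2-fold towards polysomes (6.32% of all genes) and 8 towards monosomes (25.6%). In P, 34 were towards polysomes (46.2%) and none towards monosomes (2.54%). All 5 of those in S were snRNP genes. Against genes averaging 20 TPM or more, 8 were higher and 7 lower in S, and 5 higher and 3 lower in P.

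Snrpe was the most polysomal member in Yumm1.7 S, with 125 TPM in polysomes and 29.2 in monosomes, against 412 and 127 in P. Snrpa1 had 55.6 and 18.5 TPM in S and 220 and 58.4 in P, with 41.3 in S input and 134 in P input. Snrpb and Snrpd3 led the snRNP genes in P (2.28 and 2.11). Snrpd1 had 203 and 75.3 TPM in S and 516 and 132 in P, and Snrpg, the shortest, was at or below the median gene in both states (44.4 and 64.4 TPM in S, 139 and 135 in P). At the other end, Hnrnph2 had 9.10 TPM in polysomes and 47.4 in monosomes of S, and 75.6 and 54.6 in P, with 27.6 in S input and 61.6 in P input. Hnrnph1 had 14.7 and 65.6 TPM in S and 510 and 146 in P, and Hnrnpk 64.6 and 229 in S and 580 and 233 in P. Hnrnpd (2.45) and Hnrnpm (2.01) were the most polysomal hnRNP genes in P, at 0.31 and -0.19 in S, and Hnrnpa0 (0.86) and Hnrnph3 (0.68) were the most polysomal in S. Among SR genes Srsf4 and Srsf5 led in P (1.15 and 1.14) and Srsf11 and Srsf5 in S (1.03 and 1.02). Srsf6 was at -0.92 in S and 0.36 in P. Hnrnpdl (-0.31), Srsf10 (-0.66) and Snrpert (-0.71) were among the least polysomal of their families in P, and Snrpf (0.59) in S. Srsf1 was the least polysomal SR gene in both states (9.75 and 47.3 TPM in S, 138 and 130 in P). In S, Hnrnph2, Hnrnph1, Hnrnpk and Srsf1 had several times more TPM in the monosome library than in the polysome library. The median gene was itself at -0.46 in this comparison, and shares of different libraries do not compare amounts.

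**Figure D5:**
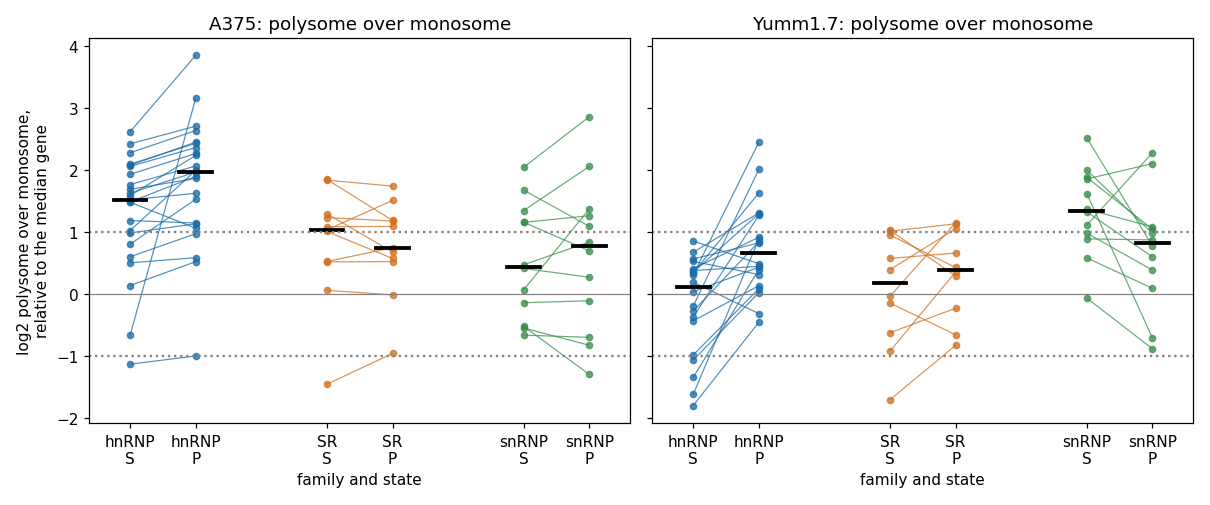
Log2 polysome over monosome relative to the median gene (vertical axis) for each member in S and P, by family, in A375 (left) and Yumm1.7 (right). Lines join the same gene in S and P, black bars are family medians and dotted lines mark 2-fold. In Yumm1.7 the hnRNP median is 0.12 in S and 0.66 in P, and the snRNP median 1.35 in S and 0.83 in P.

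The S-to-P change of the polysome-to-monosome ratio set the families apart in Yumm1.7. Relative to the median gene, 10 of 20 hnRNP genes were at least 2-fold lower in S and none higher (median -0.96), 2 of 10 SR genes were lower and none higher (-0.21), and 1 of 12 snRNP genes was lower and 3 higher (0.70), against 12.6% and 17.3% of all genes. The median gene itself was at -1.42. As deposited, 19 of 20 hnRNP, 7 of 10 SR and 4 of 12 snRNP genes were lower and none higher (66.5% of all genes lower), with medians of -2.38, -1.63 and -0.72. The direction for snRNP genes thus turned with the centring. Centring shifts every gene by the same amount, so the order of the 3 families could not change with it. Against genes averaging 20 TPM or more the counts of lower genes were 7, 1 and 0, and 5 snRNP genes were higher. Hnrnph1 (-2.46), Hnrnpm (-2.16), Hnrnpd (-2.09), Hnrnpk (-1.70) and Hnrnpl (-1.60) were the lowest hnRNP genes. The row Snrpert, to which no role is given here, was the highest of the snRNP rows (2.37), followed by Snrpe (1.79) and Snrpa1 (1.06). Snrpb (-1.12) was the lower one, and Snrpd3 (-0.21) came next. Of the SR genes, Srsf6 (-1.24) and Srsf4 (-1.14) were lower. Hnrnpa0 (0.41) and Hnrnpdl (0.55) were the highest hnRNP genes and Srsf3 (0.57) and Srsf11 (0.78) the highest SR genes, within 2-fold of the median gene.

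In A375 the change was small. None of 46 members was at least 2-fold higher in S and 4 were lower (13.1% and 7.88% of all genes): HNRNPM (-1.32), HNRNPUL2 (-1.06), SNRPA1 (-1.40), and the readthrough listed at 0, without which 3 were lower. SNRPA1 had 57.7 TPM in polysomes and 34.2 in monosomes of S, and 275 and 50.3 in P, and its 2 listed pseudogenes summed to 11.4% of its TPM in S input and 12.5% in P input. As deposited, 8 were lower (16.2%) and none higher (7.89%). SRSF8 (-0.59), SRSF3 (-0.56) and SNRPB (-0.91) were the lowest SR genes and the next lowest snRNP gene. HNRNPH2 (-0.05), HNRNPUL1 (0.33), SRSF5 (0.57), SRSF11 (0.53), SNRPC (0.49) and SNRPG (0.68) were the highest of their families, within 2-fold. Family medians were -0.43 for hnRNP, -0.03 for SR and -0.09 for snRNP genes. HNRNPM was lower in both lines (-1.32 and -2.16), as was HNRNPUL2 (-1.06 and -1.08).

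Other splicing genes were counted in input RNA against the same shares of all genes, 16.2% lower and 15.6% higher in A375 and 22.3% lower and 23.1% higher in Yumm1.7. Of genes recognising the branch point and the 3-prime splice site, 7 of 17 were at least 2-fold lower in S and none higher in A375 (median -0.90), and 10 of 17 in Yumm1.7 (-1.13). U2SURP (25 TPM in S and 107 in P) and the helicase gene DDX46 (17.8 and 65.9) were the furthest in A375. Sf3b4, a subunit of the U2-bound SF3b complex (0.745 and 78.7), and U2af1, the small subunit of the factor that reads the 3-prime AG (22.1 and 199), were furthest in Yumm1.7. Of tri-snRNP, Prp19 and catalytic step genes, 6 of 26 were lower and none higher in A375 (-0.49), and 9 of 27 lower and 3 higher in Yumm1.7 (-0.73). DHX15, a helicase that releases the spent spliceosome, was low in both (38.3 and 144 TPM in A375, 2.45 and 61.6 in Yumm1.7), with PRPF19 (37.2 and 167) in A375 and Prpf38a (4.96 and 59.7) in Yumm1.7.

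Of SMN complex and Sm methylation genes, which assemble the Sm ring on its RNA, 7 of 13 were lower in each line and 1, GEMIN8 in A375 (13.6 TPM in S and 3.81 in P), was higher. GEMIN5 (4.16 and 18.3) in A375 and Gemin6 (2.42 and 69.3) and Wdr77 (4.14 and 37.8) in Yumm1.7 were furthest among the lower ones. Of the LSM genes, which form the related ring of U6 and of mRNA decay, 1 of 8 was lower in A375 (LSM8, 11.3 and 30.3) and 6 of 8 in Yumm1.7, where Lsm8 had 3.80 and 143 TPM and Lsm5 was listed at 0 in S input and at 78.2 in P input. LSM4 (60.3 and 129) was at -0.88 in A375. Of the 7 other snRNP genes, those named SNRNP, 2 were lower in each line, near the share of all genes: SNRNP40 (49.7 and 130) and SNRNP48 (3.25 and 10.9) in A375, Snrnp40 (1.76 and 55.0) and Snrnp70 (12.5 and 129) in Yumm1.7.

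Of SR protein kinases, import and SR-related factors, 4 of 16 were lower and none higher in A375 (-0.47) and 8 lower and 1 higher in Yumm1.7. SRPK1, the kinase that prepares SR proteins for nuclear import, had 6.84 TPM in S and 30.5 in P in A375. Pinin, an SR-related nuclear protein, was low in both lines (PNN 27.9 and 174, Pnn 1.11 and 25.3), and the SR import receptor gene Tnpo3 had 3.78 and 63.1 TPM in Yumm1.7. Of other RNA-binding regulators, 11 of 29 were lower and 2 higher in A375 (-0.72) and 12 of 28 lower and none higher in Yumm1.7 (-0.84). FUBP1 (8.82 and 42.2) was among the lower genes in A375, and Elavl1 (2.22 and 54.4) and Fubp1 (1.97 and 46.1) were the furthest in Yumm1.7. Of 10 nonsense-mediated decay genes, none passed 2-fold in A375 (-0.21), with SMG1 (5.83 and 12.2) and SMG8 (9.56 and 18.2) the furthest. In Yumm1.7, 3 were lower and 4 higher (0.33), against 22.3% and 23.1% of all genes, which in so short a list is no result. Smg9 (34.8 and 20.03) and Smg5 (36.1 and 31.1) differed most among those averaging 5 TPM or more, and both were higher, whereas as deposited they were less than 2-fold higher.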

How the data were processed

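Poly(A) RNA of A375 and Yumm1.7 cells was sequenced from input, polysome and monosome fractions, per the labels' protocols. The authors deposited TPM per gene in 1 table per line, and the submitters' processing notes name GRCh38 (hg38) and GRCm38 (mm10). The sources used here give no aligner, quantifier or strandedness. The tables list no gene with a mean under 0.100 TPM. TPM holds no counts, so depth is unknown and no interval can be given.

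The deposited TPM were compared as log2(TPM + 1), which understates the change of low genes, for genes averaging 1 TPM or more, relative to the median gene. With 1 library per group no test was possible. A difference was counted past 2-fold. The computation was tested on simulated data. Python 3.11.15, pandas 2.3.3, numpy 2.4.6 and matplotlib 3.10.9 were used. Coding lengths came from the principal transcripts of GENCODE 29, also for mouse genes by symbol, and promoters from RefSeq.

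Members and lists were chosen with earlier results of these data known, and the subgroups by role and the printed promoters after the values were seen. Values in full are given, per family and line, for the 2 highest and 2 lowest members in input with a mean of at least 10 TPM and the 2 most abundant, the polysome comparisons name the 2 highest and 2 lowest, and each other list names the 2 genes of at least 5 TPM with the largest input difference. For A375, 1 gene that this rule names is not reported here. Other members named were chosen after their values were seen. Alternatives were pseudocounts of 0.1 and 5 TPM, no filter, a filter of 5 TPM, values as deposited, and centring on genes averaging 20 TPM or more.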

Additional observations from a re-analysis of the deposited data

Results flagged for a closer look

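Differences between the lines in opposite directions past 2-fold were found for 4 genes, and none of them was tested, since each value rests on single libraries. The share of all genes in opposite directions was not counted, so these 4 cannot be called many or few. HNRNPA3 was at 1.93 in A375 and -1.06 in Yumm1.7 for polysome over monosome in S, on the log2 scale relative to the median gene. HNRNPH2 was at 1.19 in A375 and -1.80 in Yumm1.7 in the same comparison, and HNRNPK at 1.59 and -1.34. For the S over P change of the polysome-to-monosome ratio, SNRPA1 was at -1.40 in A375 and 1.06 in Yumm1.7, where the as-deposited value was -0.36.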

How the results depend on the processing

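No paired analysis was possible because each group has 1 library, and no replicate could be left out. Depth is unknown, so the precision of low genes is too. Counts are of members past 2-fold. The S over P input counts of lower genes stayed within 1.5 times in both lines under every alternative (25 of 46 in A375, 35 as deposited; 28 of 42 in Yumm1.7, 41 as deposited), and the counts below did not. The cause was not tested unless the setting itself gives it.

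As deposited, without centring, the counts were 0 lower for A375 polysome over monosome in P (1) and 0 in S (2), 8 lower for the A375 ratio change (4), 0 higher in Yumm1.7 input (1), 0 higher (1) and 38 lower (22) in Yumm1.7 polysomes, 34 higher for polysome over monosome in Yumm1.7 P (13), 5 higher (10) and 8 lower (5) in S, and 0 higher (3) and 30 lower (13) for the ratio change, the values in parentheses being those relative to the median gene. Of 36 family medians, 16 moved. Against genes of at least 20 TPM, polysome over monosome gave 5 lower in A375 P, 18 higher and 5 lower in A375 S, and 5 higher and 3 lower in Yumm1.7 P, and the Yumm1.7 ratio change gave 5 higher and 8 lower.

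With a pseudocount of 0.1 TPM, 4 were lower for polysome over monosome in A375 P, 1 in Yumm1.7 P, 3 were higher in Yumm1.7 polysomes, and the Yumm1.7 ratio change gave 7 higher and 6 lower. With 5 TPM, 0 were higher in A375 monosomes (1), and 0 lower in A375 P and 1 in A375 S for polysome over monosome. With no filter, 0 were lower in A375 P and 1 in S. With a filter of 5 TPM, 0 were higher in A375 input (1), 3 lower in A375 P, 1 lower in A375 S, 1 lower in Yumm1.7 P, and the Yumm1.7 ratio change gave 5 higher and 8 lower. Snrpa1 turned to -0.36 as deposited in the Yumm1.7 ratio change. Leaving out the A375 readthrough row, an alternative chosen after the data were seen, moved no count of members by more than 1.5 times.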

Other observations

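The LSM genes, whose proteins resemble Sm proteins and are likewise short, lay below the median gene in polysomes over monosomes in A375. At least 2-fold lower were 2 of 8 in S (median -0.77; 16.7% of all genes) and 7 of 8 in P (-1.35; 20.8%), so the count in S was near the share of all genes. As deposited the levels were closer: LSM4 had 24.9 TPM in polysomes and 30.2 in monosomes of S, and 52.1 and 52.7 in P, and LSM1 had 98.7 and 88.7 in S and 59.8 and 129 in P. In Yumm1.7 the LSM genes were not lower as a group, with 2 of 8 higher and none lower in S (0.33; 13.2% and 10.9% of all genes), and 1 higher and 1 lower in P (0.08; 14.0% and 13.4%).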
